A study of Mus musculus with 3 samples.

Results

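The 10 genes described here are those of the early B lymphoid programme: Vpreb1 and Igll1 of the surrogate light chain with their relative Vpreb3, the recombination genes Dntt, Rag1 and Rag2, the transcription factor genes Pax5 and Ebf1, and Cd79a and Cd79b of the B cell receptor complex. They were chosen by name, each from the probe set that names that gene alone, which gave 10 of the 19938 genes measured. The choice was made with the log2 values of these same arrays known, so those values are given as a description, with no test. All 3 arrays carry wild-type KLS SLAM cells, a sorted population rich in haematopoietic stem cells. The cells came from the marrow of C57Bl/6 mice that were 6 to 10 weeks old, and were negative for lineage markers (Lin-), CD48- and CD41- and positive for CD150+, Sca-1+ and c-Kit+. No other genotype or treatment was analysed here, and the labels do not say whether each array holds RNA of separate or pooled animals.

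B lymphocytes arise from stem cells through progenitors that first turn on recombination genes and then, under the transcription factors E2A, Ebf1 and Pax5, the genes of the pre-B cell receptor. In that receptor the immunoglobulin heavy chain pairs with a surrogate light chain built from the products of Vpreb1 and Igll1, and it signals through the products of Cd79a and Cd79b. Low expression of some lymphoid genes in uncommitted progenitors is known as lymphoid priming.

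Without detection calls, the level of 1227 olfactory, vomeronasal and taste receptor genes, which marrow cells are not expected to use, served as a background range. A gene was counted as above the range on an array when it passed the 95th percentile of these receptor genes there. Probe sets differ in affinity, so a gene below the limit is not shown to be absent, one above it is not shown to be transcribed, and no single gene is ranked by level against another (medians over lists carry the same caution). For arrays 1, 2 and 3 this limit lay at 6.30, 5.98 and 5.77 log2. The limits differed between all 3 arrays, with array 1 highest. On array 3 the receptor genes were dimmer, with a median of 4.05 log2 against 4.39 on array 1 and 4.31 on array 2, and 9.94% of them had their highest value there, against 49.6% on array 1 and 40.4% on array 2. Counts are therefore also given without array 1 and without array 3. Between arrays, Pearson's r across all genes, which are not independent replicates, was 0.940 to 0.951. Such an r also reflects differences in level between genes, and 10.5% of all genes spanned over 1 log2 between arrays. Of 11 measured stem cell markers 10 were above the range on all arrays, against 36.8% of all genes. Among the 10 were Kit and Slamf1 of the sort, and the exception, Hoxb5, missed the range on array 1. Of markers of other cells, 7 of 8 granulocyte genes, 1 of 7 T and NK cell genes and 0 of 3 erythroid genes were above it on all arrays. These stand beside the same 36.8% of all genes, and lists this short do not show that a cell type was absent. The granulocyte genes had summed intensities of 9179, 15537 and 14168 on arrays 1, 2 and 3, and their part in the results below was not tested. The transcript Xist, read after its values were seen, was at 4.64, 9.99 and 4.95 log2 on arrays 1, 2 and 3.

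The sequences below come from the RefSeq promoter table of build GRCm38.p6, which held 9 of the 10 genes and not Cd79b. The first pair sets Vpreb1 beside the related gene Vpreb2, since among the 10 genes the largest difference between arrays was seen at Vpreb1. Capitals mark the bases that differ, 2 of 106 in a stretch that is 98.1% identical, on the minus strand at chr16:16869256-16869361 for Vpreb1 and on the plus strand at chr16:17980315-17980420 for Vpreb2. In both it lies before the annotated start of the gene, next to the start in Vpreb1 and further upstream in Vpreb2. Its length was set by the edges of the 250-base windows compared.
Vpreb1: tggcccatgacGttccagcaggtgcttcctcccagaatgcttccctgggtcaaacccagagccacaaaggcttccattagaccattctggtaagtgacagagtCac
Vpreb2: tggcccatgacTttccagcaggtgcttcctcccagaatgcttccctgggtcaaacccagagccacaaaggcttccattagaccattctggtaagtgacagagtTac

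The 250 bases before the start are shown for Igll1, the protein-coding neighbour of Vpreb1 on chromosome 16, for Vpreb3, a relative of Vpreb1 that is not itself a chain of the surrogate light chain, and for Cd79a, whose signal stayed low. They lie at chr16:16863986-16864235 on the minus strand, chr10:75948050-75948299 on the plus strand and chr7:24897247-24897496 on the plus strand. Capitals mark matches, on either strand, to letters taken from the motifs of 5 kinds of lymphoid factor: CCCNNGGG for EBF, CAGGTG for E2A, ATTTGCAT for octamer factors, GGAAGT for ETS factors and TGTGGT for runt factors.
Igll1: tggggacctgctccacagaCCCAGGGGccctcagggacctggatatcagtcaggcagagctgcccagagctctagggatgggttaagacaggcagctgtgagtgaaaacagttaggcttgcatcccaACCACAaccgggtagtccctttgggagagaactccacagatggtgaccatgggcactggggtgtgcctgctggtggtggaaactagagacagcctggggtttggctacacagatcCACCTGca
Vpreb3: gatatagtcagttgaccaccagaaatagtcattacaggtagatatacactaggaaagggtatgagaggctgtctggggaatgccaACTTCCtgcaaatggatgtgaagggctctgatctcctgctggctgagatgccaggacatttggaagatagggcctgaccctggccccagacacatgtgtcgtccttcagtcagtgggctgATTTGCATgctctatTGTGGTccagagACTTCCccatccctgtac
Cd79a: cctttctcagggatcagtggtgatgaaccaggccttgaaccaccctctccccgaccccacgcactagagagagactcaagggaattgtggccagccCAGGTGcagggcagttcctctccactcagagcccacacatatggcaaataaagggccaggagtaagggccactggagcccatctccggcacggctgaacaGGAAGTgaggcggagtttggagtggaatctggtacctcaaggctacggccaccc

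Across the 10 upstream windows of the 9 genes, Ebf1 having 2, the EBF letters occurred in 1 window, that of Igll1, against 11.8% of the 32851 windows in the table. The E2A letters occurred in 4 windows, those of Vpreb1, Igll1, Rag1 and Cd79a, against 17.2% of all windows. The octamer letters occurred in the Vpreb3 window alone among the 10, against 1.6% of all windows. The ETS letters, in the windows of Vpreb3, Rag1, Cd79a and Ebf1, were found in 19.7% of all windows, and the runt letters, in those of Vpreb3, Rag1, Igll1 and Ebf1, in 14% of all. In these windows no match overlapped a match to another motif. A match is a description of letters and shows no binding.

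On all 3 arrays, 1 of the 10 genes was above the background range, against 36.8% of all genes, and that gene was Cd79b. Without array 1 the count was 5 of 10, against 46.9% of all genes: Vpreb1, Vpreb3, Igll1, Pax5 and Cd79b. Without array 3 it was 1 of 10, against 37% of all genes. By the mean of the arrays against the mean limit it was 5 of 10, against 48.3% of all genes. With the 90th percentile of the receptor genes as the limit, 4 of 10 were above it on all arrays, against 50.6% of all genes, and with the 99th percentile 0 of 10, against 17.4%. By array, 1 of 10 passed on array 1, 5 on array 2 and 6 on array 3, against 39.3%, 49.1% and 55.2% of all genes. Of the 10, 4 missed the range on array 1 alone, against 10% of all genes. Another 4, namely Dntt, Rag2, Ebf1 and Cd79a, were above it on no array, against 42% of all genes. The median over the 10 genes was 5.58, 5.92 and 6.05 log2 on arrays 1, 2 and 3, while the median over all genes was 5.96, 5.95 and 5.94.

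**Figure D1:**
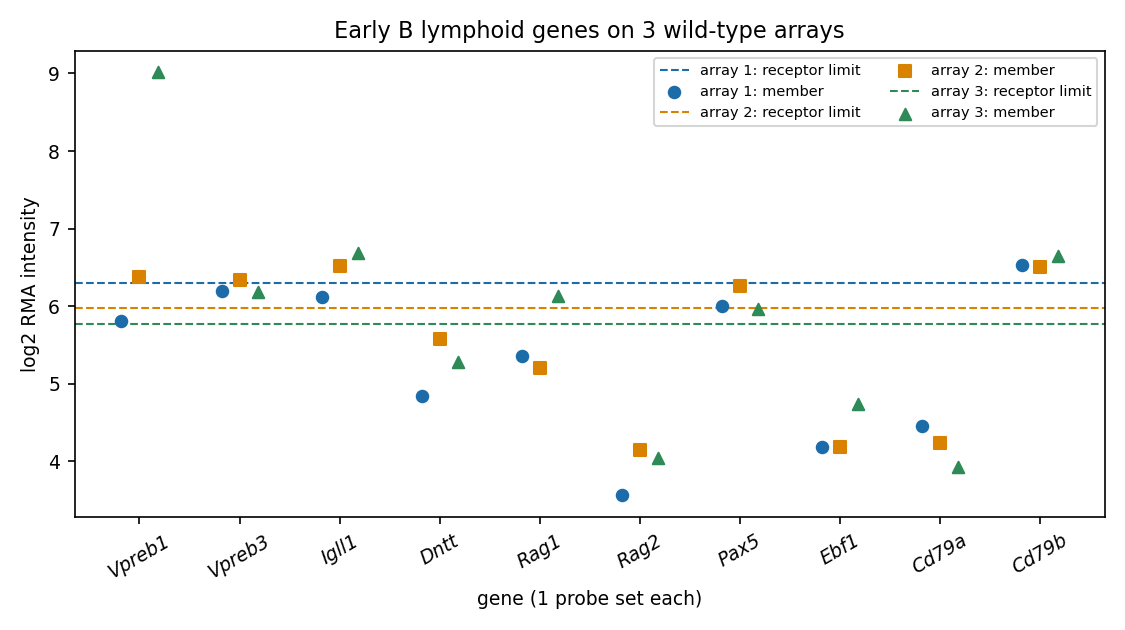
Log2 intensity (vertical axis) of the 10 genes (horizontal axis) on wild-type arrays 1, 2 and 3, each point 1 probe set on 1 array. Dashed lines are each array's receptor limit at 6.30, 5.98 and 5.77 log2; Cd79b lies above its limit on every array, and Vpreb1 on array 3 lies at 9.02 log2.

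Vpreb1, the V-like chain of the surrogate light chain, had intensities of 56.1, 83.1 and 519 on arrays 1, 2 and 3, or 5.81, 6.38 and 9.02 log2. Array 3 was thus far above the other two, 6.25-fold over array 2 and 9.25-fold over array 1. It was above the receptor limit on arrays 2 and 3 and below it on array 1. The mean was 7.07 ± 1.71 log2 (SD, n = 3), and 6.09 ± 0.40 without array 3 (n = 2), so 1 array set the level of this gene by 1.97-fold. Of 1000 genes of like mean level, 99.8% had a smaller SD. Over all 19938 genes, array 3 exceeded both other arrays by over 1 log2 in 1.3% of genes, and Vpreb1 was 1 of the 10 members to do so. An excess at least as large as that of Vpreb1, 2.64 log2, was found in 3 genes including it. The others, named after their values were seen, were Spaca1, at 4.49, 4.59 and 7.39 log2, and Nudcd2, at 5.64, 5.55 and 8.37 log2.

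**Figure D2:**
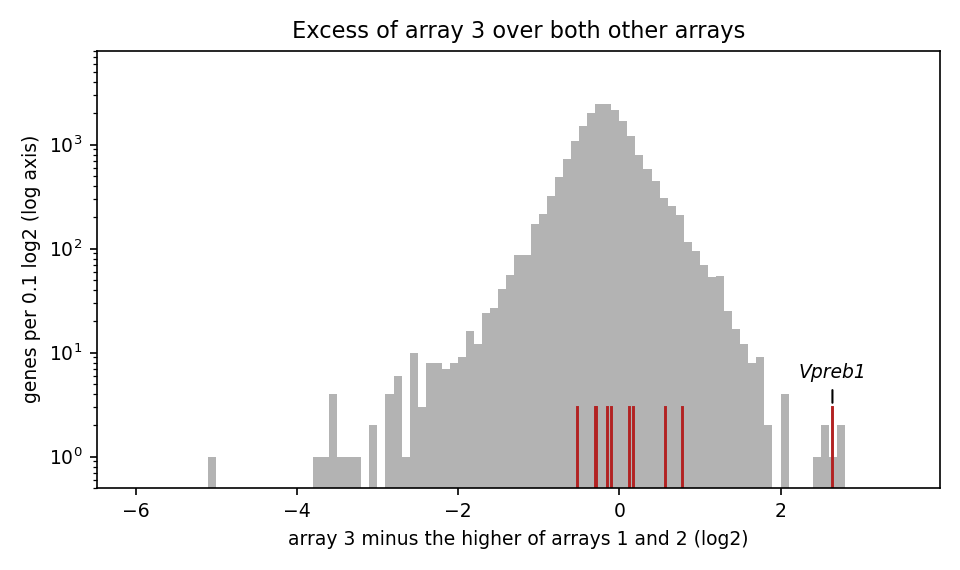
Histogram over all 19938 genes of array 3 minus the higher of arrays 1 and 2 (horizontal axis, log2), with genes per 0.1 log2 on a log axis. Red ticks are the 10 genes; the tick of Vpreb1 stands at 2.64 log2 and those of the other 9 lie below 1 log2.

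Vpreb2 is not among the 10 genes, and its probe set is separate. It was at 6.61, 6.29 and 6.36 log2 on arrays 1, 2 and 3, above the range on each, with array 1 highest. Its probe set thus did not show the high value that Vpreb1 had on array 3. The likeness given above was measured before the gene starts. The transcripts and probes of these 2 genes were not compared, and how far the probes of one read the other was not tested.

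Igll1 encodes lambda 5, the constant-like chain that pairs with the Vpreb1 product. It was at 6.12, 6.52 and 6.69 log2, with intensities of 69.7, 91.5 and 103. Array 3 was its highest as well, but by 0.17 log2 over array 2. Igll1 passed the limit on arrays 2 and 3 and missed it by 0.17 log2 on array 1. Vpreb3, which encodes a relative of Vpreb1 found in pre-B cells, was at 6.20, 6.34 and 6.19 log2, with intensities of 73.5, 81.2 and 72.8. Its arrays lay within 0.16 log2 of each other and its SD of 0.09 log2 was low, with 14.2% of genes of like level below it. Vpreb3 missed the limit of array 1 by 0.10 log2 and passed the other limits.

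**Figure D3:**
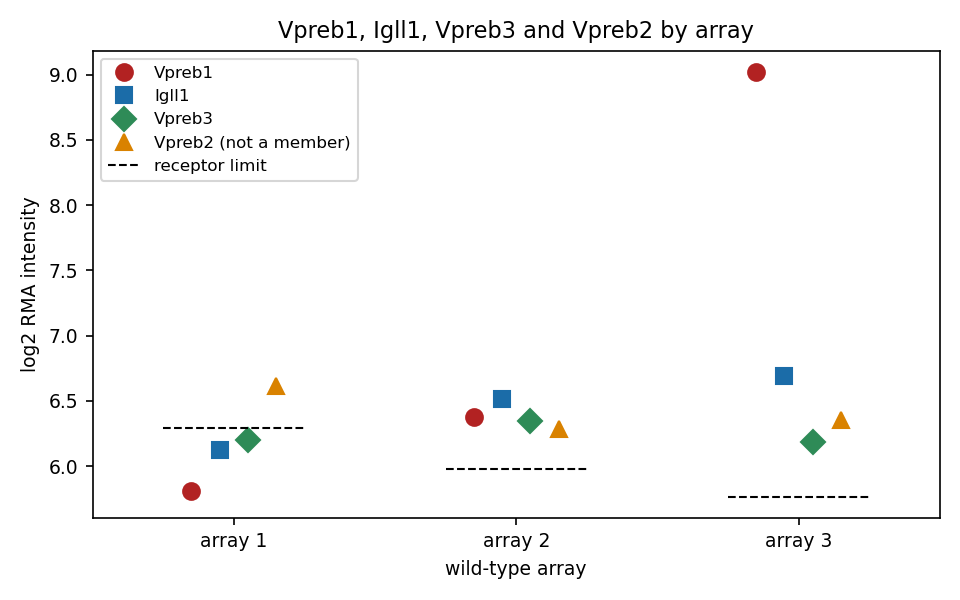
Log2 intensity (vertical axis) of Vpreb1, Igll1, Vpreb3 and Vpreb2 on the 3 wild-type arrays (horizontal axis), 1 point a gene and array, with each array's receptor limit dashed. Vpreb1 on array 3, at 9.02 log2, stands apart, while the other 3 genes lie between 6.12 and 6.69 log2 on all arrays.

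Markers of later B lineage cells were read beside the Vpreb1 value on array 3, and their part in it was not tested. The 13 measured markers of mature and late B cells had summed intensities of 682, 760 and 607 on arrays 1, 2 and 3, so array 3 had the lowest sum. Of the 13, 8 were above the range on no array, against 42% of all genes. The receptor genes were also dimmest on array 3, so such sums do not measure how many of these cells were present. By gene, 4 had their highest value on array 1, 6 on array 2 and 3 on array 3. The 3 were the class II gene H2-Aa, at 6.11, 6.47 and 6.68 log2, and Cr2 and Fcer2a, both below the limit on every array. Of these 13 markers 1, 5 and 4 passed the limit of arrays 1, 2 and 3, against 39.3%, 49.1% and 55.2% of all genes. On all arrays 1 of 13 did so, against 36.8% of all genes. This was the class II gene H2-Ab1, at 6.67, 7.33 and 6.39 log2. Ms4a1, which encodes CD20, was at 5.49, 5.04 and 4.90 log2, below the limit on every array. Ighm, the heavy chain gene of the pre-B cell receptor, was at 5.49, 4.73 and 4.66 log2 over 3 probe sets, also below it on every array. Of 7 plasma cell markers 1, Xbp1, was above the range on all arrays, against 36.8% of all genes. The summed intensities of these 7 were 376, 444 and 362.

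Dntt encodes terminal deoxynucleotidyl transferase, which adds bases at V(D)J joints. It was at 4.84, 5.58 and 5.28 log2 on arrays 1, 2 and 3, with intensities of 28.7, 47.9 and 38.9. It stayed below the limit on every array, by 0.39 log2 at the nearest, on array 2. Within the receptor genes it was brighter than 65.7%, 89.2% and 88.3% on the 3 arrays. Its SD of 0.37 log2 exceeded that of 88.8% of genes of like level.

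Rag1 and Rag2 encode the subunits of the recombinase that cuts antigen receptor genes, and they are neighbours on chromosome 2. Rag1 was at 5.36, 5.21 and 6.14 log2, with intensities of 41.0, 36.9 and 70.3. It passed the limit on array 3 alone, by 0.37 log2, and array 3 was 0.78 log2 above the next array. Rag2 was at 3.56, 4.15 and 4.05 log2, with intensities of 11.8, 17.7 and 16.5. It lay at least 1.72 log2 under the limit on each array and was brighter than 24.7%, 44.0% and 49.96% of receptor genes. So the array that was highest for Rag1 was not the highest for Rag2, and none of the 3 recombination genes was above the range on more than 1 array.

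Pax5 encodes the factor that commits progenitors to the B lineage. It was at 6.00, 6.26 and 5.96 log2, with intensities of 64.0, 76.5 and 62.4, and passed the limits of arrays 2 and 3 by 0.28 and 0.20 log2. It missed that of array 1 by 0.30 log2. Its arrays lay within 0.29 log2 of each other, a narrower span than that of the 3 limits.

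Ebf1, whose product acts before Pax5 in specifying the lineage, was at 4.18, 4.18 and 4.75 log2, with intensities of 18.2, 18.2 and 26.8. It was below the limit by at least 1.02 log2 on each array. Against receptor genes it was brighter than 42.6%, 45.4% and 74.7% on arrays 1, 2 and 3.

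Cd79a, which encodes Ig alpha, was at 4.46, 4.23 and 3.93 log2, with intensities of 22.0, 18.8 and 15.3. It was the only one of the 10 genes with its highest value on array 1, where 31.6% of all genes had theirs, and it was brighter than 51.8%, 47.4% and 46.0% of receptor genes. Cd79b, which encodes the partner chain Ig beta, was at 6.53, 6.51 and 6.64 log2, with intensities of 92.1, 91.1 and 100.01. It passed the limits by 0.23, 0.53 and 0.88 log2, and 96.6%, 98.8% and 99.3% of receptor genes were dimmer. Its SD of 0.07 log2 was the lowest of the 10, with 9.1% of genes of like level below it. The signals of the 2 partner chains thus lay on opposite sides of the limit on every array.

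Between arrays, 9 of the 10 genes kept within 1 log2 from the lowest to the highest array. The exception was Vpreb1, and 10.5% of all genes spanned over 1 log2. The median SD over arrays was 0.30 log2 for the 10 genes and 0.22 log2 for all genes, and 0.29 log2 for the 9 without Vpreb1, whose highest was 0.50 for Rag1. Without array 3 it was 0.17 log2 for the 10 genes and 0.18 for all genes, without array 2 it was 0.36 and 0.18, and without array 1 it was 0.21 and 0.18. Array 3 was the highest for 5 of the 10 genes and array 2 for 4, against 29.8% and 38.6% of all genes. The 5 were Vpreb1, Igll1, Rag1, Ebf1 and Cd79b, with an excess over the next array between 0.12 and 2.64 log2.

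**Figure D4:**
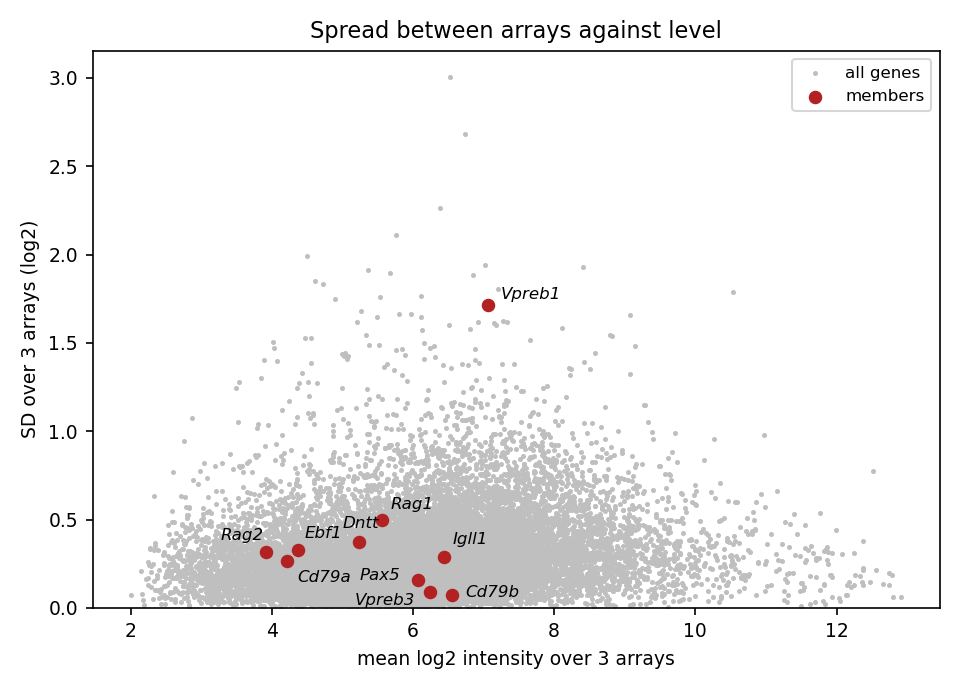
SD over the 3 arrays (vertical axis, log2) against mean log2 intensity (horizontal axis), grey for each of 19938 genes and red for the 10 genes. Vpreb1 stands at an SD of 1.71 log2, and the other 9 lie between 0.07 and 0.50.

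Beside the 10 genes, lists of genes that act around them were read in the same way. Of 92 other genes in 6 lists, 57 were above it on all arrays, which is 62.0% against 36.8% of all genes. These lists, like the members, were chosen with earlier results known, and several hold genes of general use in blood cells.

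Of 29 early lymphoid transcription factor genes, 16 were above the range on all arrays, against 36.8% of all genes, and 7 on no array, against 42%. The list median was 6.46 log2 against 5.96 over all genes. Ikzf1, which encodes Ikaros, was at 8.45, 8.17 and 8.46 log2. Tcf3, which encodes E2A, was at 6.35, 6.71 and 6.50 log2, and Spi1, which encodes PU.1, at 6.36, 6.53 and 6.91. Each of the 3 was above its limit on every array. Foxo1, a factor upstream of the recombination genes in B progenitors, was at 6.22, 6.49 and 6.54 log2 and missed the limit of array 1. Ikzf1, Tcf3 and Spi1, which act before Ebf1 and Pax5, thus had signal above the range on every array. Foxo1 and Pax5 had it on 2 arrays each, and Ebf1 on none. The probe sets of these genes differ in affinity, so this gives no order in which the genes are used.

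Of 17 receptor and surface genes of early lymphoid cells, 12 were above the range on all arrays, against 36.8% of all genes. Flt3, the cytokine receptor of lymphoid-primed progenitors, was at 7.89, 7.69 and 8.14 log2, and Kit, which the sort used, at 10.28, 9.92 and 9.85. Ly6d, a marker of B-specified progenitors, was just above the range at 6.36, 6.24 and 6.15 log2. The 5 others, each below the limit on every array, were Il7r, at 4.58, 4.32 and 4.59 log2, Ccr9, Bst1, Cd2 and Cd22. Il7r encodes the receptor for the cytokine that drives B lymphopoiesis in mice.

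Of 17 genes of pre-B cell receptor signalling, 14 were above the range on all arrays, against 36.8% of all genes. Syk, the kinase that binds the phosphorylated Ig alpha and Ig beta chains, was at 7.11, 6.80 and 6.38 log2, and Btk, a kinase further down, at 7.57, 7.89 and 8.18. The 3 others were the adaptor gene Blnk, at 4.68, 4.91 and 5.60 log2, the B lineage kinase gene Blk, at 5.19, 5.75 and 5.11, and Bcl10, which missed the limit on array 1 alone. Blnk lies beside Dntt on chromosome 19. Both were below the limit on every array, as were 42% of all genes. The highest was array 3 for Blnk and array 2 for Dntt.

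Of 15 partners of the recombinase in end joining, 11 were above the range on all arrays, against 36.8% of all genes. The Ku subunit genes Xrcc6 and Xrcc5 were at 7.39, 7.98 and 7.78 log2 and at 7.33, 7.59 and 8.31 log2. Prkdc, which encodes the DNA-dependent protein kinase that Ku recruits, was at 6.93, 6.29 and 6.35 log2. The 4 others were the ligase gene Lig4, Nhej1 and the polymerase genes Poll and Polm. Polm encodes the closest relative of the Dntt product and was at 5.44, 5.61 and 5.48 log2, below the limit on every array. So both Ku genes and Prkdc had signal above the range on every array. Rag1 had it on array 3 alone, and Rag2, Dntt and the partner gene Polm on none.

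Of 4 measured genes related to the members by name or position, Vpreb2 and Slc50a1, once named for Rag1, were above the range on all arrays. Traf6, the coding neighbour of Rag1, was at 6.57, 6.45 and 5.63 log2, and Iftap, that of Rag2, at 4.30, 5.27 and 5.30. Array 3, the highest for Rag1, was the lowest for Traf6 and also the highest for Iftap, though close to array 2. The Iftap values average 2 probe sets. Of 10 T lymphoid genes, 2 were above the range on all arrays, against 36.8% of all genes. These were Gata3, at 6.48, 6.60 and 7.17 log2, and Bcl11b, at 6.48, 6.60 and 6.51. Ptcra, the pre-T cell receptor chain and thus the counterpart of the surrogate light chain, was at 5.79, 6.32 and 6.03 log2 and missed the limit of array 1 alone. Cd3e was at 6.44, 5.91 and 5.91 log2 and missed that of array 2 alone.

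**Figure D5:**
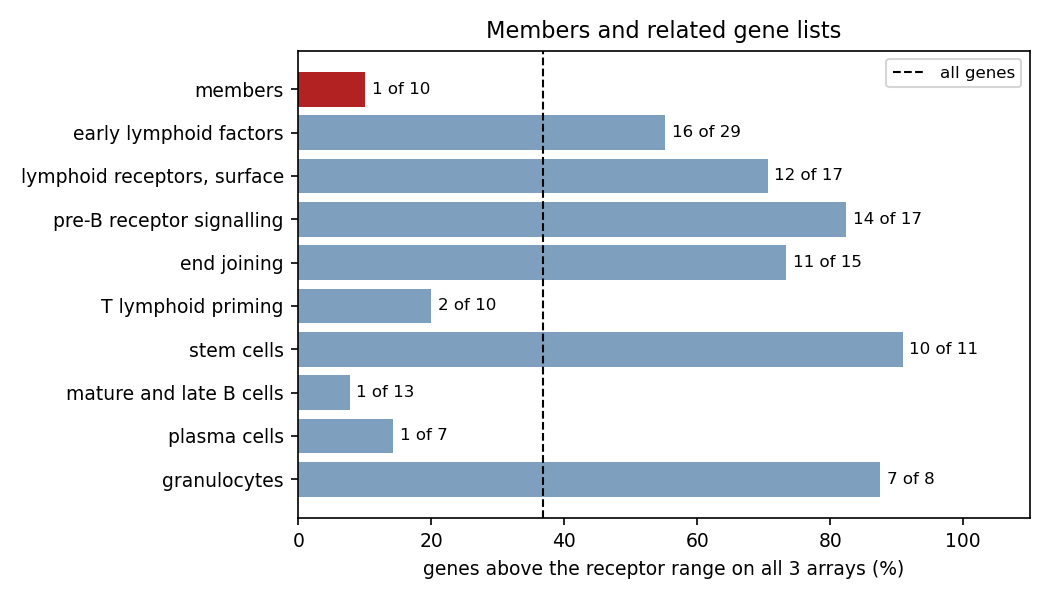
Percent of genes above the receptor range on all 3 arrays (horizontal axis) for the 10 members and for 9 lists of related genes or markers, with counts beside the bars and all genes (36.8%) as a dashed line. The members, with 1 of 10, and the mature and late B cell markers, with 1 of 13, lie below the line. So do the plasma cell markers, with 1 of 7, and the T lymphoid genes, with 2 of 10. The other lists lie above the line, among them pre-B receptor signalling with 14 of 17 genes above the range.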

How the data were processed

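RNA of sorted cells was amplified and biotin-labelled for 3 single-colour arrays, per the labels' protocols. Per the submitters' processing notes, the authors made the intensity values by RMA, a method that subtracts background, normalises and summarises probe sets, and used Affymetrix Expression Console. The versions and the arrays that shared 1 run are not stated there. RMA forces arrays run together onto 1 distribution. The deposited intensities were linear (2.82 to 18384), and log2 was taken with no pseudocount. Of 35554 probe sets, 21789 named 1 gene in the platform annotation, 1621 named several and were left out, and 12144 were not listed. Averaging log2 values per gene gave 19938 genes; each of the 10 members had 1 probe set. With 1 group there was no comparison between groups and no p-value; the number of arrays limits the precision. Members and lists were chosen with earlier results of these data known. From each list the first 4 measured genes, and a minority of at most 5 on one side of the limit, could be named. The counting was tested on simulated data, with genes set well over or well under the limit on arrays made alike. That check did not cover genes close to a limit, where several members lie. The deposited table names no genome build; sequences and their coordinates are RefSeq's, build GRCm38.p6. Tools were Python 3.11.15, numpy 2.4.6 and pandas 2.3.3.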

Additional observations from a re-analysis of the deposited data

How the results depend on the processing

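The count of 1 of 10 genes above the background range depended on the limit and on array 1. It was 4 with the 90th percentile of the receptor genes (50.6% of all genes), 0 with the 99th (17.4%), and 5 with the mean of the arrays against the mean limit (48.3%). Leaving out 1 array at a time gave 1 to 5, the 5 without array 1; renewed quantile normalisation and the brightest probe set gave 1. Of the 92 surrounding genes 57 were above the range (36.8% of all genes), and 32 at the 99th percentile (17.4% of all genes). The median level of the 10 genes was 5.82 log2 and the mean over them 5.57, with 5.69 to 5.89 when 1 array was left out. Their median SD of 0.30 log2 was 0.17 without array 3 and 0.36 without array 2. The count of genes highest on array 1 was 1 under each of its 4 alternatives, beside shares of all genes of 33.6% after quantile normalisation, 30.5% with arrays centred on all genes, 31.6% by the brightest probe set and 12.4% with arrays centred on the receptor genes, where 1 of 10 is close to that share. The recomputed levels of single genes say nothing of stability, since each has 1 probe set and leaving out 1 of 3 arrays cannot move a mean by 1 SD. No paired analysis was possible because all 3 arrays belong to 1 group. A group of 3 is too small for a check of single outlying arrays.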

Other observations

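Plasmacytoid dendritic cells share some genes with early B lymphoid cells. On all arrays 3 of their 6 measured markers exceeded the background range, against 36.8% of all genes. These were Bst2, at 7.05, 7.14 and 7.84 log2 on arrays 1, 2 and 3, Tcf4, which encodes E2-2, at 8.26, 7.71 and 8.20, and Ly6d. Siglech, a surface lectin of these cells, was at 5.95, 6.00 and 5.85 log2 and missed the limit of array 1 alone. Ccr9, at 4.82, 4.87 and 4.87 log2, and Irf7, at 5.82, 5.42 and 5.52, were below the limit on every array. Tcf4 and Ly6d were also counted in the early lymphoid lists above, and the part of these cells was not tested. Among the end joining partners, Hmgb1, whose product bends DNA for the recombinase, was at 6.46, 8.45 and 8.80 log2, an SD of 1.26, and was named after its values were seen. Cd48, a marker the sort excluded, was at 4.61, 5.62 and 6.14 log2. Array 3 thus held the highest value of Cd48 as of Vpreb1 and Rag1, and as of 29.8% of all genes. Itga2b, the gene of CD41, which the sort also excluded, went the other way. It was at 6.51, 6.36 and 6.24 log2, highest on array 1 and above the range on every array. The part of either marker in the results for Vpreb1 and Rag1 was not tested.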
